A study of Homo sapiens with 40 samples.

Results

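The genes described here encode aminoacyl-tRNA synthetases, 19 of the cytosol and 16 of the mitochondrion, and were chosen by name. Symbols that end in 1, together with FARSA and FARSB, form the cytosolic class, and symbols that end in 2 form the mitochondrial class. These 35 genes were among 58395 genes in the count table, and all of them were among the 28922 genes tested. The list is not a complete set of human synthetases. RNA was sequenced from HEK293A cells, an adherent line derived from human embryonic kidney, and from a PARP1-KO line that is 1 clone, made with CRISPR/Cas9 by deleting a stretch of exons of PARP1. The genotype field of the labels calls these cells a knockdown, whereas the titles call them KO. WT and PARP1-KO cells each received no treatment, 0.1% DMSO, topotecan (Tpc, a poison of topoisomerase 1), the compound OL9-119 (an inhibitor of the DNA repair enzyme TDP1) at 5 µM, or Tpc + OL9-119 (the combination), and every drug was given with the solvent DMSO. Tpc was used at 100 nM in WT and at 50 nM in PARP1-KO cells, so genotype and dose cannot be told apart wherever Tpc responses of the genotypes are compared. Cells were exposed for 5 to 5.5 h, and each of the 10 groups has 4 replicates. The labels call the replicates biological and the methods call them technical, so p-values measure only the spread between these libraries, which may be technical.

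An aminoacyl-tRNA synthetase joins an amino acid to its tRNA, the step that sets which amino acid a codon receives. Most human cells keep separate nuclear genes for the cytosolic and the mitochondrial enzyme of an amino acid, whereas GARS1 (glycine) and KARS1 (lysine) each serve both compartments. Several cytosolic enzymes are held in the multi-tRNA synthetase complex, and others work free of it. Genes of cytosolic synthetases are known targets of ATF4, a transcription factor whose translation rises when eIF2α is phosphorylated, as happens when amino acids run short or proteins misfold.

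The libraries held 3455043 to 20379777 counts in total (median 10656829), and the WT Tpc + OL9-119 library of replicate 4 was the shallowest. WT DMSO replicate 3 correlated least with its own group, and counts that rest on this library are given without it as well. PARP1 had a mean of 783 to 843 CPM (counts scaled to a common library size) in the WT groups and 36.5 to 41.6 CPM in the PARP1-KO groups, as the labels state. NEFL, a neurofilament gene that HEK293 cells are known to express, had a mean of 255 to 305 CPM in all groups, whereas PTPRC of blood cells stayed at or below a mean of 0.188 CPM and ALB of liver at or below 0.548 CPM.

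Cytosolic synthetase genes were expressed several times higher than mitochondrial ones. On a scale per length (RPKM over the union of exons, median of the 40 libraries per gene), the cytosolic genes had a median level of 22.9, from 9.07 for HARS1 (histidine) to 148 for TARS1 (threonine). After TARS1 came SARS1 (serine) at 78.2, NARS1 (asparagine) at 76.6 and FARSA at 56.5, a subunit of the phenylalanine enzyme. The mitochondrial genes had a median of 5.78 on the same scale, from 0.651 for SARS2 to 38.1 for IARS2 (isoleucine), and YARS2 (tyrosine) followed IARS2 at 19.1. The precision differed with the level. Cytosolic genes had at least 300 counts in every library, whereas SARS2 had between 0 and 50, FARS2 between 10 and 241 and MARS2 between 29 and 519. The standard error (SE) of a log2 fold change between PARP1-KO and WT cells without treatment was 0.11 at the median of the cytosolic genes and at most 0.15. In the mitochondrial class it reached 0.66, so a change of the size seen in cytosolic genes was not detectable at this depth in SARS2.

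Some of these promoters hold the letters of the C/EBP-ATF response element, a composite site that ATF4 is known to bind, and the stretches are shown because the members that hold them can be followed through the results. The motif TGATGNAA was searched on both strands from 250 bases before to 50 bases after each start site, in RefSeq windows of 300 bases (GRCh38.p14). A window was given for 30 of the 35 genes, and AARS2, LARS1, VARS1, VARS2 and YARS1 had none. Over all 35116 windows of this length 3.62% held the motif, and 4.46% of 27305 genes had it in at least 1 window. It was found in 7 of 16 cytosolic genes (43.8%) and in 1 of 14 mitochondrial genes (7.14%). In 6 of the 7 cytosolic genes the match had the form TGATGCAA, which 1.08% of all genes had. A match describes letters and not a bound site. The stretches of 30 bases below are written 5′ to 3′ on the strand of the gene, with the 8 bases of the motif, or of its reverse complement, in capitals.
AARS1 (alanine), chr16:70289675-70289704, minus strand: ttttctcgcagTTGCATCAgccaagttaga
CARS1 (cysteine), chr11:3057407-3057436, minus strand: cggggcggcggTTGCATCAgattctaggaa
GARS1 (glycine), chr7:30594834-30594863, plus strand: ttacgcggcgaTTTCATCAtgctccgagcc
IARS1 (isoleucine), chr9:92293692-92293721, minus strand: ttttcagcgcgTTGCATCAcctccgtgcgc
MARS1 (methionine), chr12:57488053-57488082, plus strand: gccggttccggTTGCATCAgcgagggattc
NARS1 (asparagine), chr18:57621804-57621833, minus strand: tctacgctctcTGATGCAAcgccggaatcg
TARS1 (threonine), chr5:33440956-33440985, plus strand: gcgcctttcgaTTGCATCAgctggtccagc
YARS2 (mitochondrial, tyrosine), chr12:32756076-32756105, minus strand: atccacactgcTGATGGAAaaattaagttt
Relative to the start site the match began at -187 in AARS1, -2 in CARS1, -33 in GARS1, -13 in IARS1, -4 in MARS1, 15 in NARS1, 3 in TARS1 and -197 in YARS2.

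Over the 10 groups the cytosolic class moved in WT cells and hardly at all in PARP1-KO cells. The mean log2(CPM + 1) of the 19 cytosolic genes (mean of 4 libraries) was 7.3 in WT cells both without treatment and with the solvent, 7.4 with Tpc, 7.58 with OL9-119 and 7.64 with the combination. In PARP1-KO cells it lay between 7.62 and 7.65 under every treatment. The mitochondrial class had means between 4.82 and 5.03 in WT and between 4.89 and 4.98 in PARP1-KO cells. The difference between the class levels (cytosolic minus mitochondrial, mean ± SD, n = 4) was 2.41 ± 0.136 in untreated WT cells and 2.31 ± 0.0637 with DMSO. It was 2.5 ± 0.0978 with Tpc, 2.55 ± 0.0239 with OL9-119 and 2.82 ± 0.138 with the combination. The 4 WT DMSO libraries lay between 2.266 and 2.402, and the 4 libraries of the combination between 2.644 and 2.979, so these groups did not overlap. The 20 PARP1-KO libraries lay between 2.609 and 2.861, all above the WT DMSO libraries. These levels describe the classes and carry no test. In bulk RNA a smaller number of cells of a kind and less RNA per cell cannot be told apart.

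**Figure D1:**
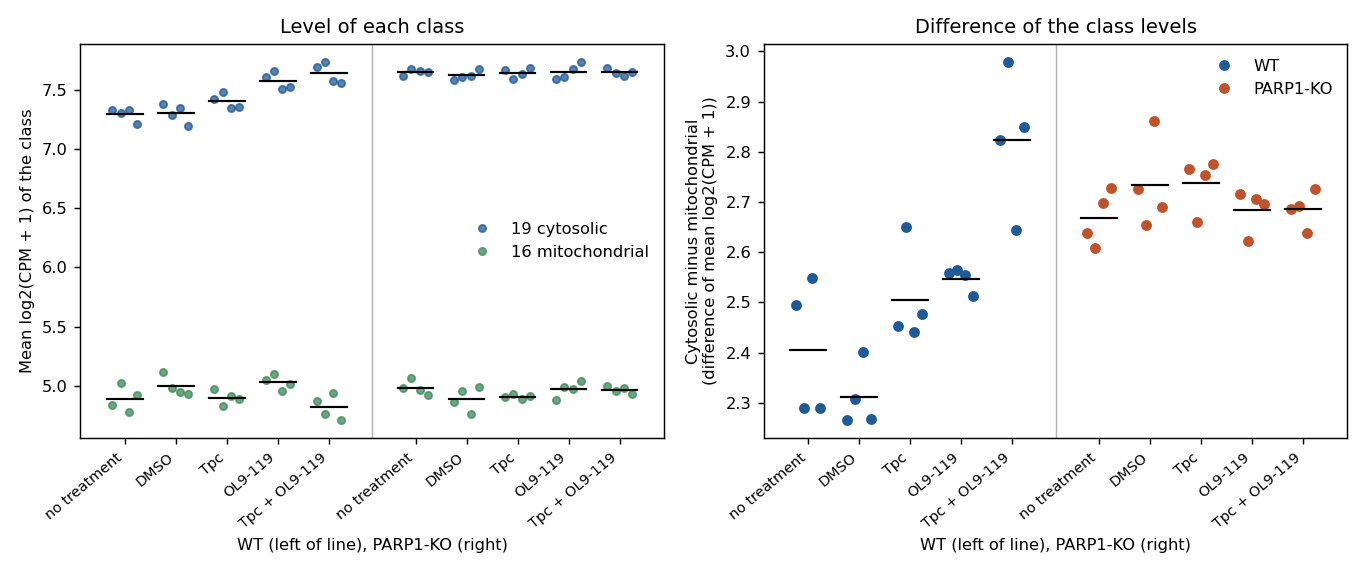
Left, mean log2(CPM + 1) of the 19 cytosolic and 16 mitochondrial synthetase genes in each library, by group; right, the difference of these class levels. Points are libraries and bars are means of 4; the difference rises from 2.31 with DMSO to 2.82 with Tpc + OL9-119 in WT cells and stays between 2.609 and 2.861 in all PARP1-KO libraries.

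The first comparison sets the PARP1-KO clone against WT cells, so loss of PARP1 and other traits of this clone cannot be told apart. In untreated cells 10 of the 19 cytosolic genes were higher in PARP1-KO than in WT cells and 0 were lower, by edgeR's quasi-likelihood test with a Benjamini-Hochberg adjusted p below 0.01, the threshold for a differentially expressed gene (DEG) throughout. Of all tested genes 11.7% were DEGs in this comparison, 5.97% higher and 5.74% lower. Since cytosolic members are abundant, the share was also taken over the 2646 tested genes at or above the level of the lowest of them, where 21.9% were higher. With DMSO in both genotypes 8 cytosolic genes were higher and 0 lower, against 12.4% DEGs among all tested genes (6.67% higher, 5.75% lower) and 22.8% higher among the abundant genes. The median log2 fold change of the cytosolic class was 0.35 without treatment and 0.34 with DMSO, and that of all tested genes was 0.17 and 0.19. The libraries of the genotypes did not overlap, with PARP1-KO higher, in 13 cytosolic genes without treatment (11.3% of all tested genes) and in 9 with DMSO (12.3%), and with PARP1-KO lower in 0 and 0 (8.37% and 7.76%). Both comparisons use different libraries of each genotype but the same clone.

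LARS1, the leucine enzyme, had the largest change of the class. It had 175.7, 179.3, 227.5 and 185 CPM in the untreated WT libraries and 408.5, 341.4, 367.2 and 382.8 CPM in the PARP1-KO libraries. With DMSO the WT libraries had 181.4, 229.6, 125.1 and 178.8 CPM and the PARP1-KO libraries 362.9, 356.6, 401.6 and 372.6 CPM. The genotypes did not overlap in either treatment. The log2 fold change was 0.97 ± 0.11 SE without treatment (adjusted p = 1.73e-09) and 1.06 ± 0.11 SE with DMSO (adjusted p = 9.98e-11), that is 1.95-fold and 2.09-fold. Over all treatments the PARP1-KO libraries of LARS1 had at least 326.3 CPM and the WT libraries at most 267.1 CPM, and no other of the 35 genes kept the 20 libraries of each genotype apart. The share of all tested genes that kept them apart was not taken, so whether this is unusual is not known.

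IARS1, AARS1 and MARS1 followed. IARS1, the isoleucine enzyme, had 233.6, 351.5, 308.4 and 370.1 CPM in untreated WT and 537.3, 533.1, 540.9 and 573.7 CPM in untreated PARP1-KO libraries, a difference of 0.79 ± 0.11 SE on the log2 scale (adjusted p = 1.77e-07). AARS1, the alanine enzyme, had 168.4, 146.6, 178.2 and 124.6 CPM in WT and 234.3, 248, 247.7 and 256.3 CPM in PARP1-KO libraries, a difference of 0.67 ± 0.11 SE (adjusted p = 1.43e-06). MARS1, the methionine enzyme, had 144, 170.2, 155.9 and 150.5 CPM in WT and 213.7, 250.6, 224.5 and 247.4 CPM in PARP1-KO libraries, a difference of 0.59 ± 0.1 SE (adjusted p = 1.02e-05). For these genes too the groups did not overlap. The exons of MARS1 share 12.4% of their bases with genes on the opposite strand, among them DDIT3, and which strand was counted is not stated, so the value of MARS1 is uncertain to that extent.

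FARSA and FARSB, the subunits of the cytosolic phenylalanine enzyme, were higher in both treatments, by 0.57 and 0.54 on the log2 scale without treatment and by 0.59 and 0.69 with DMSO. FARSB had 68.29, 73.01, 51.9 and 62.94 CPM in WT DMSO and 103.3, 94.28, 103.5 and 112.5 CPM in PARP1-KO DMSO libraries, without overlap (adjusted p = 3.01e-05). TARS1 was higher by 0.5 and 0.52. In all, 7 genes passed in both treatments and 11 in either. SARS1, YARS1 and NARS1 passed only without treatment and CARS1 only with DMSO, but the other treatment gave 0.34, 0.36, 0.3 and 0.35 with adjusted p of 0.0372, 0.0155, 0.0127 and 0.0509, and the difference between treatments was not tested. KARS1, which charges tRNA with lysine in both compartments, had -0.19 and -0.4 (adjusted p = 0.262 and 0.0101). With DMSO it was called lower by DESeq2, with the filterByExpr filter, with the prefix of the library names as batch and with offsets for length and GC content. GARS1 had 0.34 without treatment (adjusted p = 0.0252). Of the 7 listed enzymes of the multi-tRNA synthetase complex 3 were higher in each treatment, as were 7 and 5 of the 12 that work outside it.

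Counts of DEGs depended on the correction for gene length and GC content. With offsets for both, the median of all tested genes shifted by -0.13 and -0.17, the cytosolic genes higher fell to 5 and 4. TARS1 then had 0.24 and 0.16 (adjusted p = 0.222 and 0.405) and FARSB 0.2 and 0.33 (adjusted p = 0.3 and 0.0699). SARS1, YARS1 and NARS1 lost their calls without treatment (adjusted p = 0.0114, 0.12 and 0.773), as did IARS1 and CARS1 with DMSO (adjusted p = 0.0103 and 0.0912). In the same fits the split of all DEGs with DMSO turned from 1930 higher and 1662 lower to 1180 higher and 2726 lower. CARS1 with DMSO lost its call without WT DMSO replicate 2, 3 or 4 or PARP1-KO DMSO replicate 1, 2 or 4, at 0.38 to 0.48 (adjusted p from 0.0124 to 0.0452). FARSA lost it without untreated PARP1-KO replicate 2 or 3 or untreated WT replicate 3 (0.49 to 0.51, adjusted p up to 0.0268). With DMSO FARSA lost it without PARP1-KO replicate 2 or 4 or WT replicate 2 or 4 (0.48 to 0.55, adjusted p up to 0.0283). NARS1 lost it without untreated PARP1-KO replicate 1, 2 or 3 or untreated WT replicate 1, 2 or 4 (0.31 to 0.35, adjusted p up to 0.0241). Without WT DMSO replicate 3 the count with DMSO was 9, with SARS1 (0.43, adjusted p = 0.0077) and YARS1 (0.45, adjusted p = 0.00267) called and CARS1 not. DESeq2 called NARS1 and YARS1 higher with DMSO as well.

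**Figure D2:**
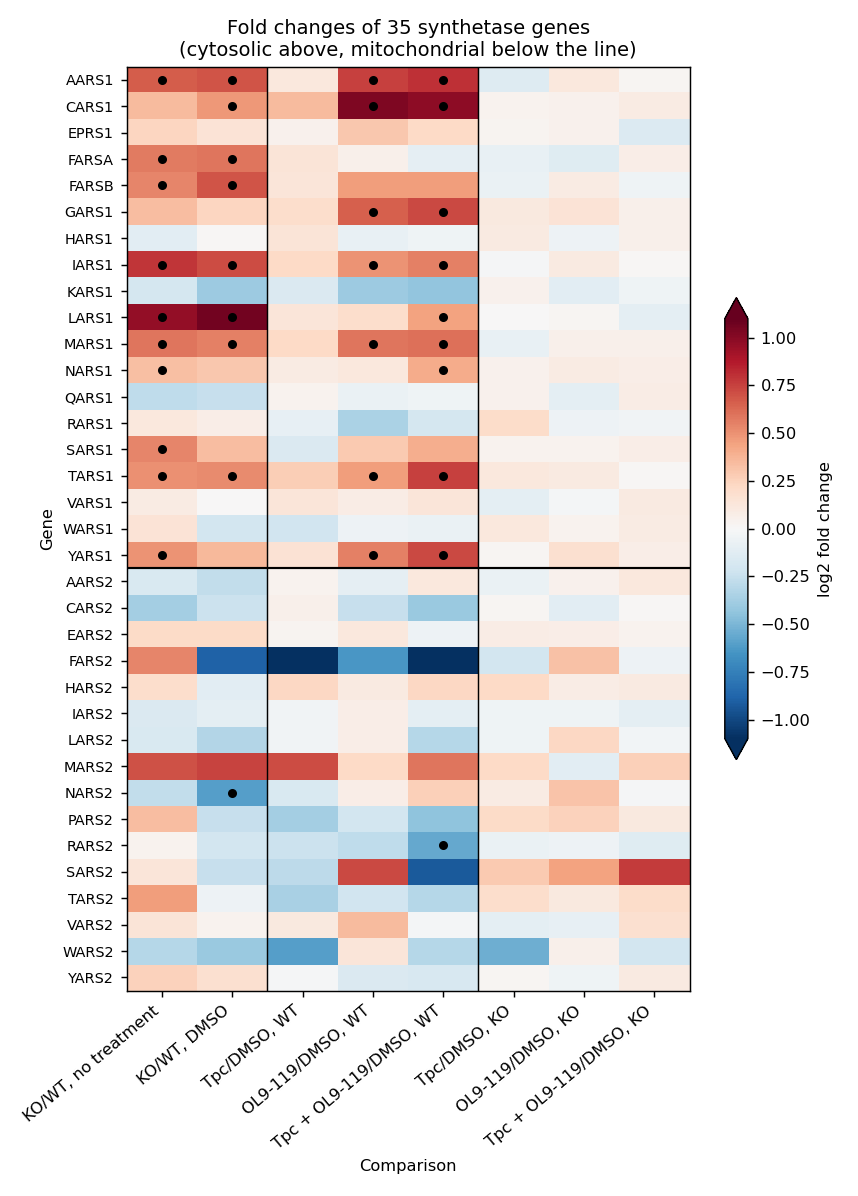
Log2 fold changes of the 35 genes (rows, cytosolic above the line) in 8 comparisons (columns), with the colour scale ending at 1.1 in either direction and dots for adjusted p below 0.01. Dots stand in the cytosolic rows of the KO/WT, OL9-119 and combination columns of WT cells, in NARS2 and RARS2, and in no column of drug against DMSO in PARP1-KO cells.

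Of the 16 mitochondrial synthetases 1 passed between the genotypes, NARS2 with DMSO. Without treatment 0 of 16 passed in edgeR and in DESeq2 alike. Of all tested genes 12.4% were DEGs with DMSO and 11.7% without treatment. Among tested genes at or above the level of the lowest member these shares were 24.9% and 23.8%. The lowest adjusted p without treatment were those of TARS2 (threonine, 0.46, adjusted p = 0.0277), MARS2 (0.7 ± 0.26 SE, adjusted p = 0.0496) and CARS2 (cysteine, -0.37, adjusted p = 0.0802). Without untreated WT replicate 3, 1 gene was called. With offsets for length and GC content NARS2 and IARS2 were called lower without treatment, and NARS2, IARS2, RARS2 and WARS2 (tryptophan) with DMSO. With DMSO NARS2, the mitochondrial asparagine enzyme, was lower by 0.61 ± 0.16 SE on the log2 scale (adjusted p = 0.00441). It had 63.25, 48.85, 32.96 and 57.62 CPM in WT and 37.23, 34.32, 26.23 and 35.11 CPM in PARP1-KO libraries, so that WT replicate 3 fell within the range of the PARP1-KO group. Without treatment its difference was -0.27 ± 0.16 SE (adjusted p = 0.255). The median of the class was 0.14 without treatment and -0.22 with DMSO. MARS2, the mitochondrial methionine enzyme, had 0.74 with DMSO (adjusted p = 0.0366), with 18.05, 20.99, 3.476 and 14.09 CPM in WT and 23.59, 25.16, 24.96 and 21.2 CPM in PARP1-KO libraries, which lay above all 4 WT libraries. In the class 2 genes were higher and 2 lower without overlap in untreated cells (11.3% and 8.37% of all tested genes). With DMSO 2 were higher and 0 lower (12.3% and 7.76%).

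NARS2 lies on chromosome 11, where most of the genes counted near it had negative log2 fold changes in this clone. Of 70 other tested genes counted within 5 Mb of NARS2, 53 had a negative value in PARP1-KO against WT cells with DMSO. These are counts of sign, whether or not a gene passed. Only neighbours above a minimum mean level were counted. The median log2 fold change of the 70 genes was -0.42. It was 0.19 for all tested genes, but 0.02 for the 13701 tested genes at or above the level of the lowest member. The share of all tested genes with a negative value was not taken. For CARS1, on the other arm of chromosome 11, 78 neighbours had a negative value, and the median over all its counted neighbours was -0.47. For GARS1 on chromosome 7 it was 45 of 59, with a median of -0.48. Yet CARS1 itself was higher by 0.48 ± 0.13 SE and GARS1 did not pass. Whether these regions have a part in the values of NARS2, CARS1 or GARS1 was not tested. NARS2 also lost its call without PARP1-KO DMSO replicate 2 (-0.63, adjusted p = 0.0103) or 3 (-0.51, adjusted p = 0.0349) and without WT DMSO replicate 1 (-0.48, adjusted p = 0.0479) or 4 (-0.56, adjusted p = 0.0166).

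Other genes of tRNA charging and translation moved in both directions between the genotypes. Of all tested genes 5.97% were higher and 5.74% lower without treatment, and 6.67% and 5.75% with DMSO. AIMP2, a scaffold of the multi-tRNA synthetase complex, was lower by 0.63 without treatment and 0.55 with DMSO on the log2 scale, and AIMP1, another scaffold, had -0.3 without treatment and was lower with DMSO at -0.73. Of 4 tested cytosolic elongation factors EEF2, which moves the ribosome along the mRNA, was higher (0.72 and 0.87) and EEF1B2 was lower (-0.47 and -0.53). Of 10 genes of mitochondrial tRNA maturation 3 were higher and 1 lower without treatment, and 4 were higher and 1 lower with DMSO. Among them MTO1 and GTPBP3, which modify the wobble base, had 1.14 and 0.75 without treatment, TRIT1, a tRNA modifying enzyme, had 0.95, and HSD17B10, a subunit of mitochondrial RNase P, was lower at -0.81.

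A list of 14 genes around ATF4 was compiled with results of these data known, so its counts are a description only. Of these, 9 were higher and 0 lower in each genotype comparison, against 5.97% and 6.67% of all tested genes higher, with medians of 0.89 and 0.9. ATF4 itself was higher by 0.77 ± 0.14 SE without treatment (adjusted p = 1.62e-05) and by 0.74 with DMSO. DDIT3, which encodes the stress-induced factor CHOP, was higher by 1.86 and 1.71.

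No member passed with the solvent alone. With DMSO against no treatment 0 of 35 genes passed in WT and 0 in PARP1-KO cells, where 0% of all tested genes passed, and at an unadjusted p below 0.05 there were 3 and 1 members. DESeq2 called 0 members as well. The cytosolic medians were 0.01 in WT and -0.01 in PARP1-KO cells, and the mitochondrial medians 0.05 and -0.06.

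With Tpc alone against DMSO 0 of the 35 genes passed in WT cells, while 0.985% of all tested genes were DEGs. At an unadjusted p below 0.05 there were 7 members. The cytosolic median was 0.13 and the mitochondrial median -0.04. TARS1 had 0.27 (adjusted p = 0.161) and CARS1 0.35 (adjusted p = 0.17). FARS2, the mitochondrial phenylalanine enzyme, had -1.51 ± 0.42 SE (adjusted p = 0.0379) and was called lower by DESeq2. Its WT DMSO libraries had 10.09, 5.169, 28.89 and 3.758 CPM, and its Tpc libraries 6.624, 3.466, 3.094 and 3.481 CPM. The groups overlapped, and WT DMSO replicate 3 had the highest FARS2 level of all 40 libraries. Without it the difference was -0.6 ± 0.4 SE (adjusted p = 0.533), and without WT DMSO replicate 4 the mitochondrial count was 1.

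OL9-119 raised cytosolic synthetases in WT cells. Against DMSO 7 of 19 were higher and 0 lower, whereas 1.15% of all tested genes were DEGs, 0.488% higher, and among the abundant genes 2.08% were higher. In the mitochondrial class 0 of 16 passed, with the test of edgeR and with DESeq2 alike. The cytosolic median was 0.29 and the mitochondrial median 0.07. With offsets for length and GC content these became 0.15 and -0.11, while the median of all tested genes shifted by -0.12. These libraries were compared with the same WT DMSO libraries that stand in the genotype comparison.

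CARS1, the cysteine enzyme, had the largest response. It had 96.65, 73.74, 69.76 and 59.96 CPM with DMSO and 162.9, 182.4 and 142.9 CPM in replicates 1 to 3 with OL9-119, where replicate 4 was lowest and the mean was 154 ± 24.4 CPM (SD, n = 4). The groups did not overlap, and the difference of 1.03 ± 0.13 SE on the log2 scale (adjusted p = 1.25e-07) is a 2.04-fold level. AARS1 had 155.1, 145.4, 162.9 and 128.5 CPM with DMSO and 243.7, 286.2, 221.1 and 246.9 CPM with OL9-119, a rise of 0.75 ± 0.11 SE (adjusted p = 1.11e-06). GARS1 had 178.2, 193.8, 208.4 and 151.2 CPM with DMSO and 296, 313.4, 271.5 and 273.8 CPM with OL9-119, a rise of 0.66 ± 0.11 SE (adjusted p = 7.32e-05). Every OL9-119 library was above every DMSO library for these genes. MARS1 rose by 0.59, YARS1 (tyrosine) by 0.55, IARS1 by 0.49 and TARS1 by 0.46. Of the genes that were most different between the genotypes, LARS1 had 204, 201, 208.5 and 202 CPM with OL9-119 and did not pass.

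Among the members that did not pass, KARS1 and RARS1 had lower values. KARS1 had 185.8, 207.8, 233.4 and 148.9 CPM with DMSO and 144.2, 165.9, 141.1 and 138.1 CPM with OL9-119, a difference of -0.4 ± 0.12 SE (adjusted p = 0.0469), and DESeq2 called it lower. RARS1, the arginine enzyme, had 158.2, 145.7, 169 and 132.1 CPM with DMSO and 120.4, 123.5, 114.6 and 117.9 CPM with OL9-119, so that the groups did not overlap, at -0.35 (adjusted p = 0.0723), and DESeq2 called it lower as well. Groups that did not overlap were 9 cytosolic genes higher and 1 lower, against 3.12% and 2.31% of all tested genes. With only the 8 compared libraries in the fit 2 cytosolic genes were called, and with the offsets 1, CARS1. IARS1 lost its call without WT DMSO replicate 1 (0.51, adjusted p = 0.0112) or 3 (0.36, adjusted p = 0.0746) and without OL9-119 replicate 1, 3 or 4 (adjusted p = 0.0317, 0.0267 and 0.0229). TARS1 lost it without WT DMSO replicate 1 or OL9-119 replicate 4 (both adjusted p = 0.0107), and YARS1 without OL9-119 replicate 2 (adjusted p = 0.0119). Without WT DMSO replicate 3 the cytosolic count with OL9-119 was 6.

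The combination of Tpc and OL9-119 gave the broadest response of WT cells. Against DMSO 9 of 19 cytosolic genes were higher and 0 lower, and 1 of 16 mitochondrial genes, RARS2, was lower, while 3.38% of all tested genes were DEGs, 1.84% higher and 1.54% lower, and 5.97% of the abundant genes were higher. The cytosolic median was 0.41 and the mitochondrial median -0.24, against 0 for all tested genes. CARS1 had 132.2, 173.6, 145.2 and 143.6 CPM (0.98 ± 0.13 SE, adjusted p = 1.88e-07) and AARS1 had 275.1, 278.8, 236.7 and 238.6 CPM (0.8 ± 0.11 SE, adjusted p = 1.44e-07). TARS1 rose from 431.7, 468.1, 497.4 and 427.6 CPM with DMSO to 803.7, 886.4, 711.6 and 669.1 CPM, by 0.75 ± 0.1 SE (adjusted p = 1.57e-07). GARS1 and YARS1 each rose by 0.73, MARS1 by 0.61, IARS1 by 0.55, LARS1 by 0.44 and NARS1 by 0.41. KARS1 had -0.43 ± 0.12 SE (adjusted p = 0.0149) and was called lower by DESeq2 and with the filterByExpr filter. The 7 genes called with OL9-119 alone were all among these 9, but both comparisons share the DMSO libraries.

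The 7 cytosolic genes shown above with the motif TGATGNAA in a promoter window were all higher with the combination, as were YARS1 and LARS1, which had no window. Of the 10 cytosolic genes not called with the combination 9 had a window and 0 of them held the motif. This split depended on the setting. SARS1, with a window without the motif, was called higher against untreated cells and without WT DMSO replicate 3 (0.49, adjusted p = 0.00872). IARS1, with the motif, lost its call without that library (adjusted p = 0.0143). DESeq2 called FARSB higher and KARS1 lower, which also had a window without the motif. The mitochondrial gene with the motif, YARS2, was not called in any comparison. Of the 14 genes around ATF4 13 had a window, of which 4 (30.8%) held it. In other comparisons motif and calls went together less closely. Between the genotypes FARSA, FARSB and SARS1, which had a window without the motif, were called, whereas GARS1 was not. NARS1 was not called with OL9-119 alone, and no gene with the motif was called with Tpc alone. With offsets for length and GC content GARS1 and NARS1 lost their calls with the combination (adjusted p = 0.0803 and 0.168). Whether the motif has a part in these values was not tested.

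Genes of the ATF4 list were higher in the same WT libraries. With OL9-119 12 of its 14 genes were higher (0.488% of all tested genes), with a median of 1.38, and with the combination 10 were higher (1.84%), with a median of 1.17. CHAC1, which encodes a glutathione-degrading enzyme of the ATF4 pathway, was higher by 4.98 ± 0.44 SE with OL9-119 and by 4.4 ± 0.44 SE with the combination on the log2 scale. DDIT3 was higher by 1.87 and 1.43, and its exons overlap those of MARS1. The RNA of ATF4 itself had 0.46 and 0.5 and did not pass. None of these lists was chosen independently of the results.

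RARS2, the mitochondrial arginine enzyme, had 69.86, 71.11, 72.63 and 55.11 CPM with DMSO and 44.13, 43.93, 46.69 and 47.5 CPM with the combination. All libraries of the combination lay below those with DMSO, at -0.56 ± 0.13 SE (adjusted p = 0.00362). Against untreated WT cells, at 55.55, 54.82, 47.91 and 61.7 CPM, the difference was -0.27 (adjusted p = 0.215), so the call depends on the comparator. It was also lost without WT DMSO replicate 1 (adjusted p = 0.0119) or 3 (adjusted p = 0.0117) and without combination replicate 1 (adjusted p = 0.0133) or 2 (adjusted p = 0.0118). Its cytosolic counterpart RARS1 had 132.9, 147.4, 132.5 and 117.8 CPM with the combination and did not pass. FARS2 had -1.42 ± 0.42 SE (adjusted p = 0.0255) and -0.54 ± 0.4 SE without WT DMSO replicate 3 (adjusted p = 0.506). Without WT DMSO replicate 2 or 4 the mitochondrial count was 2.

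With only the compared libraries in the fit 5 cytosolic and 0 mitochondrial genes were called with the combination. With offsets for length and GC content GARS1 (0.5, adjusted p = 0.0803), LARS1 (0.3, adjusted p = 0.163) and NARS1 (0.24, adjusted p = 0.168) lost their calls. Without a filter on low counts LARS1 (adjusted p = 0.0125) and NARS1 (adjusted p = 0.0248) lost theirs. LARS1 lost its call without WT DMSO replicate 1, 3 or 4 or combination replicate 1, 2 or 4, at 0.29 to 0.47, with the highest adjusted p of 0.101 without WT DMSO replicate 3, and against untreated cells (0.34, adjusted p = 0.0487). IARS1 lost it without that library (0.4, adjusted p = 0.0143). NARS1 lost it without WT DMSO replicate 1 (0.37, adjusted p = 0.0133) and without combination replicate 1 or 2 (0.38, adjusted p = 0.0103). Without WT DMSO replicate 3 the cytosolic count was 8.

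**Figure D3:**
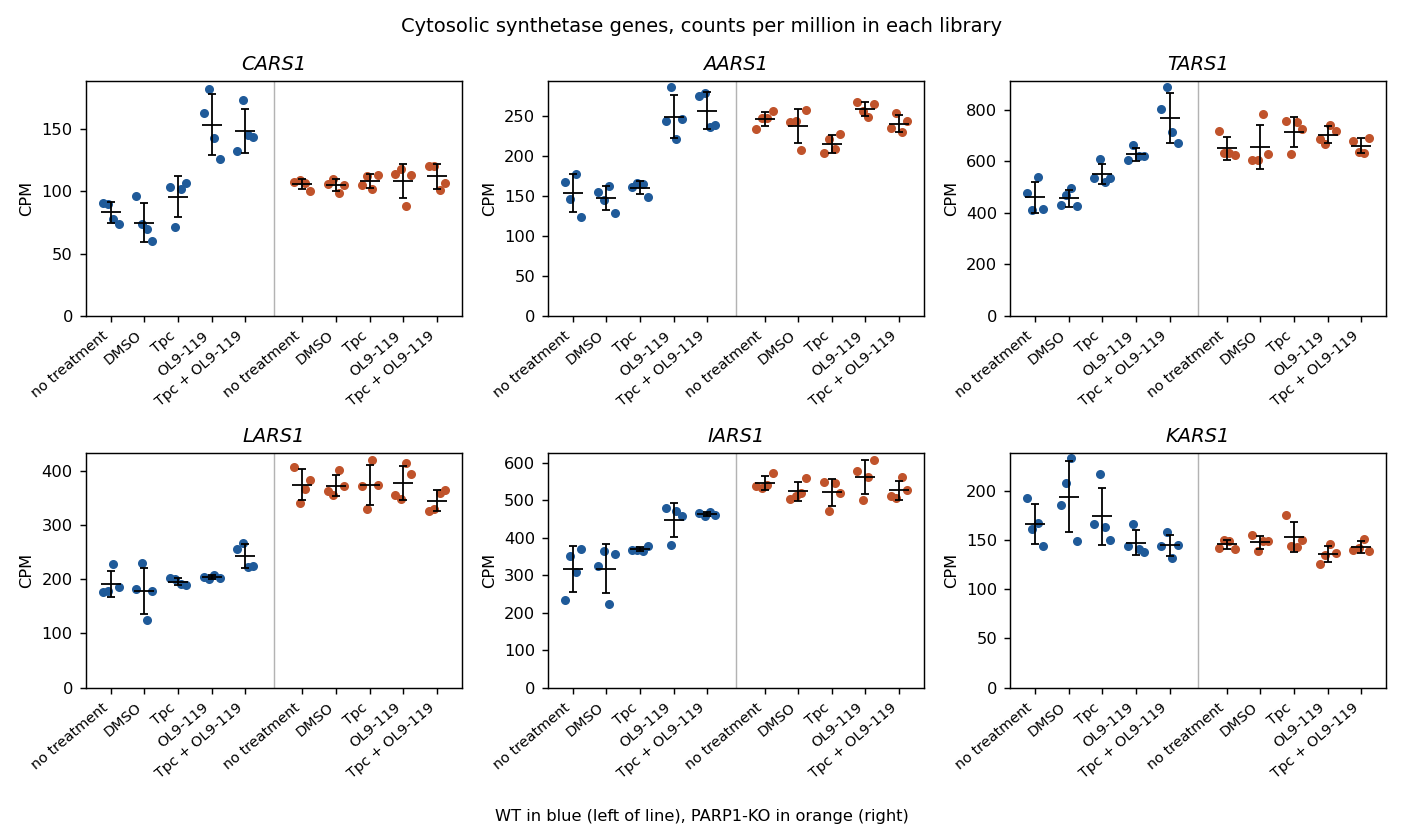
CPM of CARS1, AARS1, TARS1, LARS1, IARS1 and KARS1 in each library (points), with the mean and SD of 4 libraries (bars), by group. CARS1 and AARS1 rise with OL9-119 in WT cells, LARS1 separates the genotypes, and KARS1 had its highest group mean, 194, in WT cells with DMSO.

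Adding OL9-119 at a fixed dose of Tpc also raised cytosolic synthetases. Against Tpc alone AARS1, CARS1, YARS1, GARS1 and TARS1 were higher in WT cells, 5 of 19 cytosolic genes, with 0 of 16 mitochondrial genes called and 0.18% of all tested genes DEGs (0.118% higher, 0.0622% lower). The rises were 0.68 for AARS1 (adjusted p = 4.27e-05), 0.63 for CARS1 (adjusted p = 0.00678), 0.57 for YARS1 (adjusted p = 0.00338), 0.54 for GARS1 (adjusted p = 0.00678) and 0.48 for TARS1 (adjusted p = 0.00678). AARS1 had 161.6, 166.8, 165.1 and 149.1 CPM with Tpc alone, below all libraries of the combination. Of the 7 listed genes of the multi-tRNA synthetase complex 0 were called here, and the 5 called genes are among the 12 outside it. DESeq2, however, also called MARS1 of the complex, and NARS1 and SARS1 outside it. Whether the complex and the other genes differ was not tested. Of AARS1 the call held without each library, with an adjusted p of at most 0.0011. The other calls were less firm, and the count fell to 1 without Tpc replicate 1 or 3 or without combination replicate 1 or 2, and to 2 without Tpc replicate 4. In these fits GARS1, TARS1 and YARS1 had adjusted p of at most 0.0666, 0.0848 and 0.0513. CARS1 lost its call without Tpc replicate 1, 2 or 3 or any combination library, with the highest adjusted p of 0.185 (0.5) without Tpc replicate 2.

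In PARP1-KO cells no synthetase gene passed with any drug. With Tpc, OL9-119 and the combination against DMSO, and with the combination against Tpc, 0 of 35 genes passed in edgeR, as in DESeq2, where 0%, 0.00346%, 0% and 0% of all tested genes were DEGs. At an unadjusted p below 0.05 there were 1, 0, 0 and 1 members. The cytosolic medians were 0.04, 0.05, 0.06 and 0.02. CARS1 had 106.3, 109.9, 98.57 and 105.1 CPM with DMSO and 114.3, 117.7, 87.95 and 113 CPM with OL9-119. AARS1 had 243.2, 244, 208.3 and 257.5 CPM with DMSO and 267.9, 257.1, 248.7 and 265.2 CPM with OL9-119. These AARS1 levels overlapped those of WT cells with OL9-119, whereas CARS1 in PARP1-KO cells stayed below every WT library with OL9-119. Over the 5 group means of PARP1-KO cells the highest cytosolic mean was 1.05 to 1.2 times the lowest (median 1.12), and over those of WT cells 1.1 to 2.05 times (median 1.36).

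The difference of a response between the genotypes was tested as an interaction. For OL9-119, given at the same dose to both, CARS1 responded less in PARP1-KO cells, by -0.98 ± 0.18 SE on the log2 scale (adjusted p = 0.00219), and it was the only member to pass, against 0.1% of all tested genes (0.0207% higher, 0.0795% lower). AARS1 had -0.63 (adjusted p = 0.0548). For the combination 3 of 19 cytosolic genes and 0 of 16 mitochondrial genes passed, against 0.432% of all tested genes (0.121% higher, 0.311% lower), and all had the smaller response in PARP1-KO cells. They were CARS1 (-0.89 ± 0.18 SE, adjusted p = 0.00338), AARS1 (-0.78 ± 0.15 SE, adjusted p = 0.00091) and TARS1 (-0.74 ± 0.14 SE, adjusted p = 0.000871). GARS1 had -0.67 (adjusted p = 0.015) and YARS1 -0.66 (adjusted p = 0.0199). For Tpc 0 members passed, against 0.173% of all tested genes (0.0311% higher, 0.142% lower), and 4 had an unadjusted p below 0.05. For the other members a lack of response in PARP1-KO cells is therefore not shown to differ from that in WT cells.

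These differences were sensitive to single libraries and settings. For OL9-119 CARS1 lost its call without PARP1-KO OL9-119 replicate 3 (-0.9, adjusted p = 0.0157), WT DMSO replicate 2 (-0.95, adjusted p = 0.0108) or 4 (-0.88, adjusted p = 0.0149), or WT OL9-119 replicate 2 (-0.88, adjusted p = 0.0179), and with untreated cells as comparator (-0.85, adjusted p = 0.0267), and the count was then 0. With the offsets and with only the compared libraries it also lost its call (adjusted p = 0.247 and 0.0179). For the combination AARS1 and TARS1 kept their calls without each library but lost them with the offsets (-0.76 and -0.56, adjusted p = 0.108 and 0.196) and with only the compared libraries (adjusted p = 0.0132 and 0.0131). CARS1 lost its call without WT DMSO replicate 2, 3 or 4, WT combination replicate 2, PARP1-KO DMSO replicate 2 or PARP1-KO combination replicate 3 or 4, at -0.87 to -0.79 (adjusted p from 0.0101 to 0.0162). It also lost the call with the offsets, with only the compared libraries and against untreated cells (adjusted p = 0.0385, 0.0151 and 0.0312). Against untreated cells AARS1, GARS1, TARS1 and YARS1 were called. Without WT DMSO replicate 3 the cytosolic counts were 1 for OL9-119 and 4 for the combination. For the combination GARS1 (adjusted p = 0.00574) and YARS1 (adjusted p = 0.00385) were then called.

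Cytosolic and mitochondrial enzymes of the same amino acid moved apart in WT cells with the combination. In 15 pairings of a cytosolic with a mitochondrial gene, in which FARSA and FARSB share FARS2, the cytosolic log2 fold change was above that of its counterpart in 14, with a median difference of 0.68. The differences ran from -0.28 for HARS1 and HARS2, which lie side by side on chromosome 5, to 1.87 for FARSB and FARS2. Without WT DMSO replicate 3 FARSB had 0.36 and FARS2 -0.54, and CARS1 had 0.93 and CARS2 -0.53. Between the genotypes with DMSO the cytosolic gene was above in 13 pairings with a median difference of 0.59, and in untreated cells in 11 with 0.24. With OL9-119 in WT cells it was above in 10 (0.37). With Tpc alone in WT cells, where no member passed, the cytosolic gene was above in 13, with a median difference of 0.17. The count alone is therefore not particular to the combination. For the combination against Tpc in WT cells it was 11 (0.4), and with DMSO against no treatment 6 (-0.07) in WT and 10 (0.05) in PARP1-KO cells. With the drugs against DMSO in PARP1-KO cells the cytosolic gene was above in 7, 6 and 6 of 15, with medians of 0, -0.01 and -0.03. MARS1 and MARS2 had 0.55 and 0.74 between the genotypes with DMSO and 0.61 and 0.59 with the combination. Without WT DMSO replicate 3, in which MARS2 had 3.476 CPM, MARS1 had 0.57 and 0.64 and MARS2 0.4 and 0.26. CARS1 and CARS2 lay farther apart, at 0.98 and -0.41 with the combination, where CARS2 did not pass (adjusted p = 0.087). Against untreated WT cells CARS2 was lower at -0.59 (adjusted p = 0.00749).

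**Figure D4:**
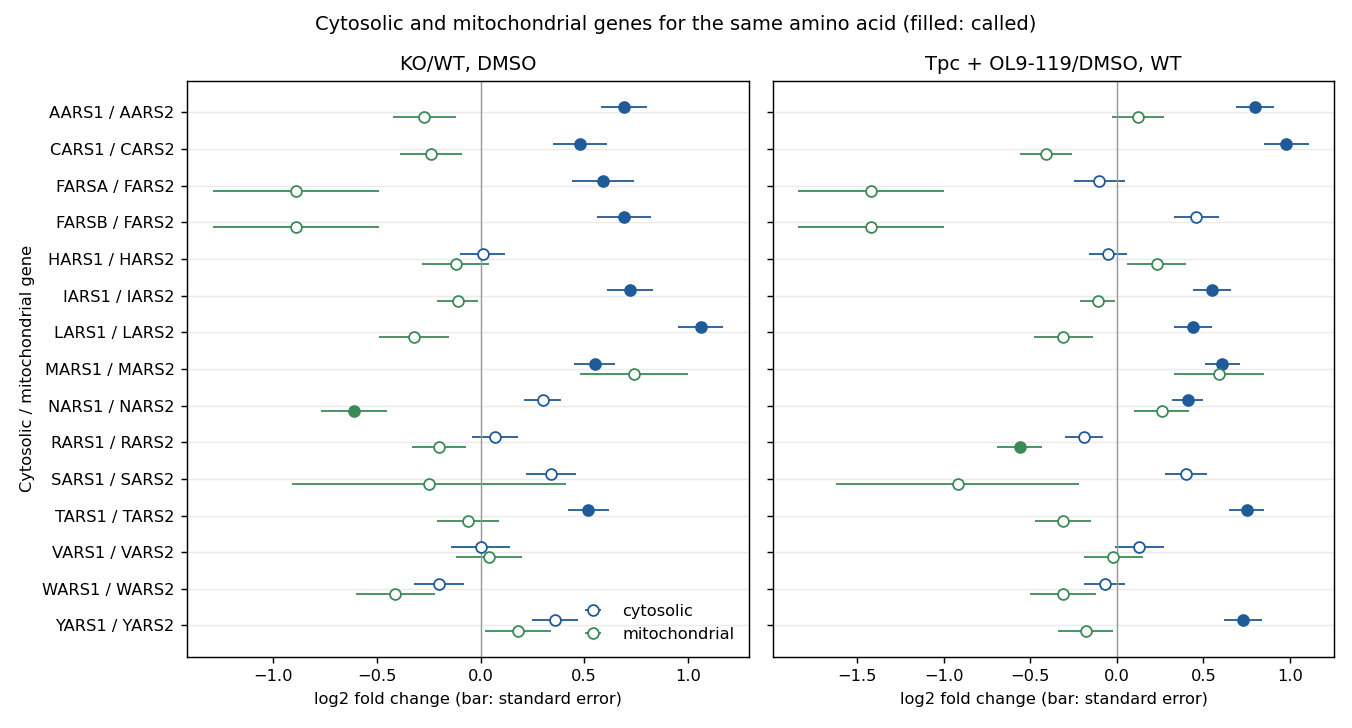
Log2 fold changes with SE of cytosolic (blue) and mitochondrial (green) genes for the same amino acid, between the genotypes with DMSO (left) and with Tpc + OL9-119 against DMSO in WT cells (right), with filled points for adjusted p below 0.01. The cytosolic gene lies to the right of its counterpart in 13 of 15 pairings on the left and in 14 of 15 on the right.

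The enzymes for asparagine and arginine hold the mitochondrial members that passed. NARS1 rose with the combination in WT cells, from 241.3, 272.7, 263.8 and 276.2 CPM with DMSO to 363.2, 371.3, 333.6 and 330 CPM (adjusted p = 0.00225). NARS2 had 69.53, 67.68, 56.16 and 49.15 CPM with the combination, at 0.26 ± 0.16 SE above DMSO (adjusted p = 0.343). Against untreated WT cells NARS1 had 0.43 and NARS2 0.46, and a difference between these genes was not tested. In PARP1-KO cells the group means of NARS2 lay between 33.1 and 41.1 CPM and in WT cells between 44.3 and 60.6 CPM. RARS1 did not pass in any comparison, whereas RARS2 had its lowest group mean, 45.6 CPM, in WT cells with the combination and its highest, 67.2 CPM, in WT cells with DMSO.

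**Figure D5:**
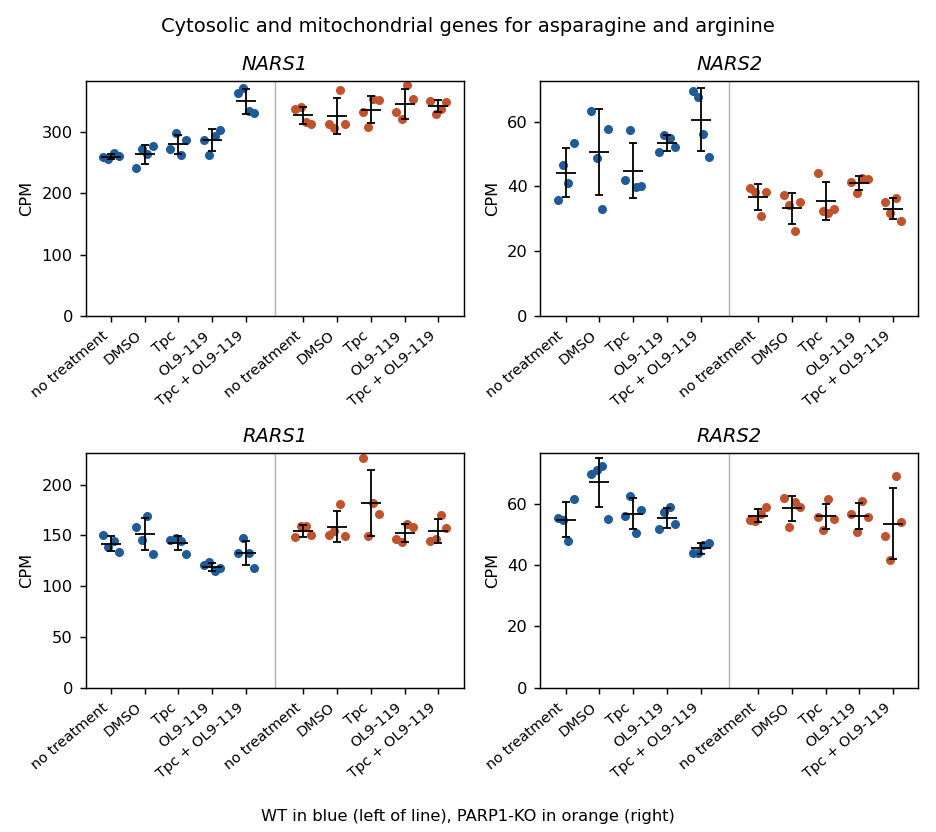
CPM of NARS1, NARS2, RARS1 and RARS2 in each library (points), with the mean and SD of 4 libraries (bars), by group. NARS2 group means are between 33.1 and 41.1 in PARP1-KO cells and between 44.3 and 60.6 in WT cells, and RARS2 is lowest, at 45.6, in WT cells with Tpc + OL9-119.

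In no comparison did 7 of the cytosolic genes pass, namely EPRS1 (glutamate and proline), HARS1, KARS1, QARS1 (glutamine), RARS1, VARS1 (valine) and WARS1 (tryptophan), nor did 14 of the mitochondrial genes. Among these cytosolic genes WARS1 and VARS1 varied least, with the highest of the 10 group means 1.15 and 1.18 times the lowest. The largest spans of the mitochondrial class were in genes of few counts, 3.1 for SARS2 and 2.88 for FARS2 over the WT group means. SARS2 shares 48.2% of its exon bases with another gene on the same strand, and its counts are uncertain for that reason too.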

How the data were processed

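RNA of 40 libraries (WT and PARP1-KO HEK293A cells, 5 treatments, 4 replicates) was enriched for poly(A) and made into directional libraries. Reads were mapped by the authors to hg38 in STAR 2.7.8, and the deposited values are raw counts per gene, with FastQC 0.11.9 and Picard 2.26.6 also named in the processing notes. The counts were not normalized, and 0 columns of other samples were present. The strand column that was kept is not given in the sources used here. A gene was kept if its counts over the 40 libraries reached 10 in sum. Testing used TMM factors and edgeR 4.0.16 (glmQLFit with the legacy option, glmQLFTest, limma 3.58.1, R 4.3.3), with 1 coefficient per group. All comparisons so share 1 estimate of the spread. p-values were adjusted by the Benjamini-Hochberg method across the 28922 genes, and the threshold was 0.01. DESeq2, which the study used, served as an alternative (version 1.42.0), and DMSO was taken as comparator for the drugs because the drugs were given in it. CPM use TMM library sizes, and RPKM divide them by the union of exons in GENCODE 44, which matched 57754 of 58395 genes. The members and all lists were chosen with earlier results of these data known, as was the rule for genes given per library: in each comparison up to 4 members of a class with the largest change among those called, their counterparts of the same amino acid, and GARS1, KARS1, HARS1, HARS2, NARS2 and CARS1. EPRS1, FARSA, QARS1, SARS1, SARS2, VARS1, WARS1 and the genes of other lists were named after their values were seen. Replicate numbers came from the titles. On simulated data for PARP1-KO against WT with DMSO, with 200 of 27989 genes changed 2-fold, 148 changed and 2 unchanged genes were called. The changed genes were drawn from those above a minimum mean count, so this share does not apply to genes of few counts or to smaller changes. Counting error limits genes of few counts most. Figures were drawn with matplotlib.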

Additional observations from a re-analysis of the deposited data

Results flagged for a closer look

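Groups of 4 libraries in which the highest or lowest value stood apart, by a ratio of its gap to the whole range above Dixon's critical value for 4 samples, were searched over 270 groups (24 genes and the class levels, each in 10 groups). There were 17, where 1 in 20 would give 13.5, so the number as such is near what chance gives. Several fell on the same libraries. In WT Tpc replicate 2 the difference of the class levels was 2.65 against 2.441 to 2.476 in the other libraries (ratio 0.833), NARS2 had 57.41 CPM against 39.92 to 41.98 (0.882), CARS1 71.63 against 101.7 to 106.5 (0.862), TARS1 607 against 521.3 to 535.4 (0.835) and YARS1 223.9 against 168.3 to 175.8 (0.865). In PARP1-KO DMSO replicate 3 TARS1 had 782.9 CPM against 605.8 to 627.6 (0.877), NARS1 368.8 against 305.7 to 313.3 (0.88) and RARS1 180.9 against 149.6 to 154.1 (0.856).

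The other groups in which a library stood apart concerned single genes. NARS2 had 30.8 CPM in untreated PARP1-KO replicate 3 against 38.2 to 39.52 (0.849) and 44.12 in PARP1-KO Tpc replicate 1 against 31.73 to 33.14 (0.886). CARS1 had 87.95 CPM in PARP1-KO OL9-119 replicate 3 against 113 to 117.7 (0.842). TARS1 had 715.9 CPM in untreated PARP1-KO replicate 1 against 623.2 to 631.6 (0.909). RARS2 had 55.11 CPM in WT DMSO replicate 4 against 69.86 to 72.63 (0.842), and AARS2 had 44.65 in untreated WT replicate 3 against 51.58 to 52.54 (0.878). FARS2 had 6.624 CPM in WT Tpc replicate 1 against 3.094 to 3.481 (0.89). HARS1 had 174.6 CPM in untreated WT replicate 1 against 130 to 134 (0.91) and 135.7 in WT OL9-119 replicate 2 against 110.5 to 112.8 (0.909).

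Responses that differed between the genotypes by the interaction test were those of CARS1 to OL9-119 (-0.98 on the log2 scale) and of AARS1 (-0.78), CARS1 (-0.89) and TARS1 (-0.74) to the combination, each smaller in PARP1-KO cells. For the combination the dose of Tpc differed as well.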

How the results depend on the processing

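No gene called in a comparison changed sign under any alternative. With the replicate number as a block the cytosolic and mitochondrial DEG counts were 10 and 0 (KO/WT, no treatment), 8 and 1 (KO/WT, DMSO), 7 and 0 (OL9-119), 9 and 1 (combination) and 6 and 0 (combination against Tpc), so the block moved no count by over 1.5 times. Averaged over all pairs of groups the numbers hardly paired the libraries (mean correlation of deviations 0.039 for the same number and -0.009 for others). In single comparisons this varied. It was 0.222 and -0.071 for OL9-119 and 0.212 and -0.063 for Tpc against DMSO in PARP1-KO cells, where the block also gave 0 calls. For DMSO against no treatment in WT cells it was 0.2 and -0.057, and for KO/WT with DMSO -0.088 and 0.022. With length and GC offsets cytosolic counts were 5 in each KO/WT comparison (1 of them, KARS1, lower with DMSO), 1 with OL9-119, 2 for the combination against Tpc and 0 for the genotype differences of OL9-119 and of the combination, and 2 and 4 mitochondrial genes were lower in KO/WT without and with DMSO. With the combination GARS1, LARS1 and NARS1 lost their calls in these fits. The mitochondrial median changed sign, from 0.07 to -0.11 with OL9-119 and from -0.08 to 0.02 for the combination against Tpc. The class differences were then 0.46 (KO/WT, DMSO), 0.54 (combination) and 0.26 (combination against Tpc). With only the compared libraries, which leaves fewer samples to estimate the spread, cytosolic counts were 4 (KO/WT, DMSO), 2 (OL9-119), 5 (combination) and 0 for both genotype differences, and mitochondrial counts 0 for KO/WT with DMSO and the combination. DESeq2 called 8 cytosolic genes for the combination against Tpc, 2 and 6 for the genotype differences of OL9-119 and the combination, and 1 (FARS2, Tpc) and 2 (combination) mitochondrial genes. A threshold of 0.05 gave 2 (both higher, whereas those called with offsets were lower), 2, 1 and 2 mitochondrial genes (KO/WT without and with DMSO, Tpc, combination) and 6 cytosolic genes for the genotype difference of the combination. With untreated cells as comparator the genotype difference of OL9-119 had 0 cytosolic calls, and class differences were 0.46 (combination) and -0.04, -0.13 and -0.49 (genotype differences of Tpc, OL9-119 and the combination). The class difference was 0.48 with the prefix of the library names as batch (KO/WT, DMSO) and 0.36 without GARS1 and KARS1 (KO/WT, no treatment). The cause of these shifts was not tested. Leaving out each library gave cytosolic counts of 8 to 10 and 6 to 9 (KO/WT without and with DMSO), 5 to 8 (OL9-119), 7 to 10 (combination), 1 to 5 (combination against Tpc), and 0 to 1 and 2 to 4 (genotype differences of OL9-119 and the combination). Mitochondrial counts were 0 to 1 and 0 to 2 (KO/WT), 0 to 1 (Tpc) and 0 to 2 (combination). Class differences were 0.21 to 0.34 and 0.44 to 0.59 (KO/WT), 0.12 to 0.21 (Tpc), 0.14 to 0.32 (OL9-119), 0.53 to 0.71 (combination), 0.35 to 0.5 (combination against Tpc), and -0.21 to -0.09, -0.39 to -0.23 and -0.72 to -0.43 (genotype differences of Tpc, OL9-119 and the combination).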
